A study of Mus musculus with 24 samples.

Results

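Hepatocellular carcinoma (HCC), the malignant tumour of hepatocytes, was compared with the non-tumour liver lying beside such tumours in B6C3F1 mice. The comparison took all 12 arrays of these groups out of 24 in the series: 6 arrays titled BDCA_HCC and 6 titled BDCA_Normal, called non-tumour liver here. "BDCA" is not spelled out in the labels. HCC replicates 3 and 4 were near duplicates and were averaged into 1 sample, so 5 carcinoma samples stood against 6 non-tumour samples. The other groups were 6 arrays of hepatoblastoma (HB), an embryonal liver tumour, and 6 arrays of normal liver from vehicle controls, and they shared the estimate of the spread behind every p-value. The tissue came from a long-term bioassay in which male and female mice received Ginkgo biloba extract or its corn-oil vehicle by gavage, and part of the carcinomas arose in unexposed animals. The labels give no dose, sex or animal for a sample, do not say which carcinoma lay beside which non-tumour sample, and do not say that the replicates are separate animals. The p-values therefore measure only the spread between these samples, which may be partly technical.

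Hepatocytes make most plasma proteins, detoxify drugs and hormones with cytochrome P450 and conjugating enzymes, and run gluconeogenesis and the urea cycle, with different tasks in the periportal and pericentral parts of the lobule. Carcinomas of hepatocytes often keep part of this programme, lose other parts of it, and switch fetal genes such as Afp and Gpc3 back on. Many tumours also make their own serine from a glycolytic intermediate through Phgdh, Psat1 and Psph, and ATF4, a transcription factor active when amino acids run short or unfolded protein accumulates, is known to drive these genes together with Asns and Trib3.

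Each array gave 1 intensity per probe set, scaled by the authors to a trimmed mean of 500 before deposit. How many arrays there were, those of the other groups included, limits the precision. No difference was detected in 4 measures of array quality, namely the 3' to 5' ratios of Gapdh and Actb, the median intensity and the share of probe sets above the filter (two-sided exact permutation tests, adjusted p = 0.948 for each, where the smallest p that 5 against 6 samples allow is 0.00433). HCC 1 stood apart from the other carcinomas and near non-tumour 1. On the first principal component of the 11 samples, which held 25.0% of the variance, HCC 1 lay at -45.3 beside non-tumour 1 at -50.03, while the other carcinomas lay between 29.2 and 92.8. Both arrays were low in the list of lipogenesis and cholesterol genes, with mean log2 levels of 9.82 and 9.79 against 11.56 to 12.05 in the other carcinomas and 11.40 to 11.97 in the other non-tumour samples. HCC 5 lay farthest out on that component. Non-tumour 6 alone of the 12 arrays carried the RNA of the inactive X chromosome, Xist, at 10449, and values without it stand beside the sex-biased genes. Alb, the albumin gene and a hepatocyte marker, read 22998 to 38655 in the carcinomas and 26300.5 to 39396 in non-tumour liver, which checks the tissue but does not tell the groups apart. The carcinoma markers Bex1, Phgdh and Gpc3 were higher in every carcinoma than in any non-tumour sample, but they were chosen with these data known and are no independent check of the labels.

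Of 14086 tested genes, 256 differed between carcinoma and non-tumour liver at an adjusted p under 0.05 (1.82%), 184 of them higher (1.31%) and 72 lower (0.511%) in carcinoma. The change was large in most of these genes, since 175 were at least 2-fold higher and 63 at least 2-fold lower on the log2(intensity + 16) scale used throughout, which understates the change of dim genes. The median difference of all tested genes was 0.05. For 104 of the 256 the groups did not overlap, and for 152 they did. Over all tested genes the groups did not overlap in 214 (1.52%). At an unadjusted p under 0.05 there were 1867 genes. The samples shared these calls unequally: HCC 1 lay above the non-tumour mean for 175 of the 184 higher genes, HCC 2 for 181, and the other 3 for all 184. The counts also moved with single samples. Without HCC 1 they were 404 higher and 205 lower, without HCC 5 they were 103 and 33, without HCC 6 they were 91 and 39, without non-tumour 3 they were 117 and 37, and without non-tumour 5 they were 110 and 34. Lower calls alone moved past 1.5 times without non-tumour 1 (122), 2 (45) or 4 (44). With only these groups in the fit, so that the spread was estimated from 11 samples instead of 23, 58 genes were higher and 14 lower.

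Among genes whose groups did not overlap, Bex1, Gpc3, Phgdh, Akr1c18 and Tff3 rose most. In this and the following sentences the 5 carcinoma values are intensities in the order HCC 1, 2, 3+4, 5 and 6. Bex1, a small adaptor protein of nerve growth factor signalling, read 2667, 1124, 7479, 17054 and 12612 in the carcinomas and 15.6 to 462 (median 129) in non-tumour liver. The lowest carcinoma, HCC 2, lay above the highest non-tumour sample, and the log2 difference was 5.52 ± 0.60 (SE), a 46-fold rise (limma, adjusted p = 2.39e-05). Gpc3, an oncofetal proteoglycan of the cell surface, read 871, 5009.9, 7643, 16214 and 9409.6 against 3.92 to 237 (median 178). HCC 1 was the lowest carcinoma and still above every non-tumour sample (log2 difference 5.46 ± 0.72, 44-fold, adjusted p = 0.00012). Akr1c18, which inactivates progesterone, read 546, 199, 10614, 14960.0 and 11373 against 17.5 to 183 (median 76.2). HCC 1 and 2 were far below the other 3 samples, and the groups did not overlap (log2 difference 5.16 ± 1.08, adjusted p = 0.0109). Leaving out single samples moved these differences without ending a call, that of Bex1 between 5.11 without HCC 5 and 6.09 without HCC 2, that of Gpc3 between 4.93 without non-tumour 6 and 6.12 without HCC 1, and that of Akr1c18 between 4.57 without HCC 5 and 6.10 without HCC 2, with 5.75 without HCC 1.

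**Figure D1:**
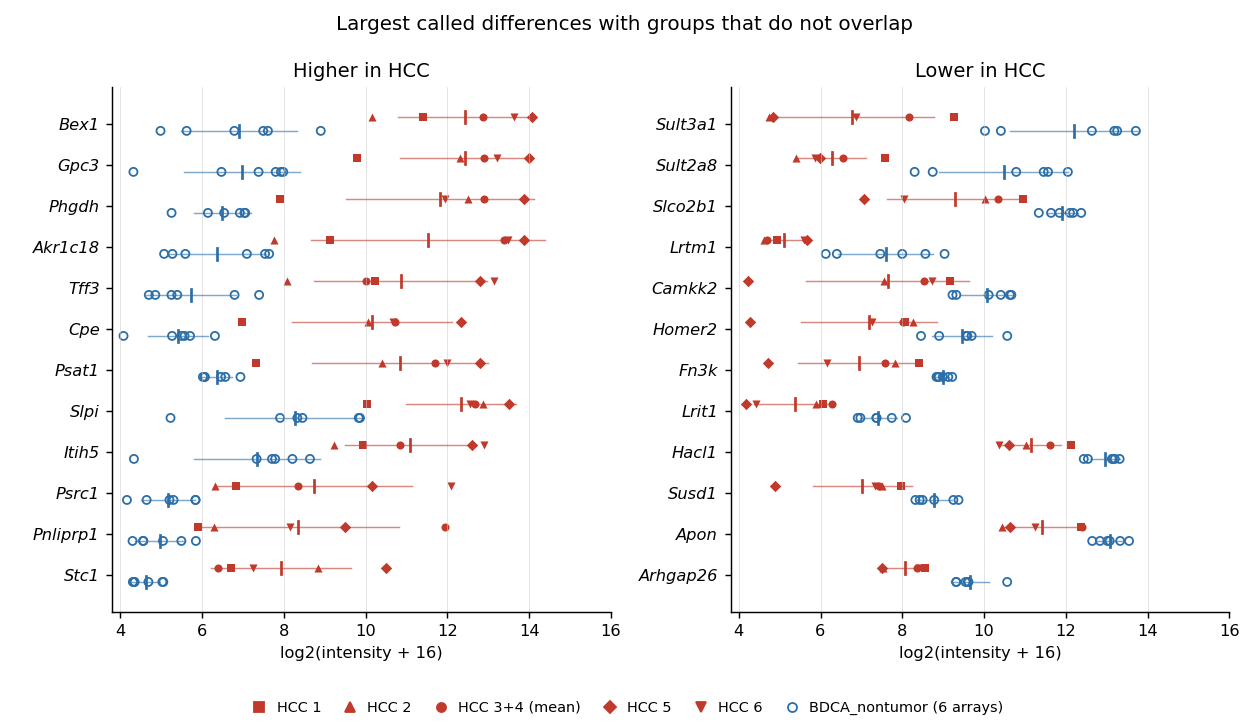
The 12 genes with the largest called differences in each direction among genes whose groups did not overlap, higher in carcinoma on the left and lower on the right. The horizontal axis is log2(intensity + 16), each filled symbol is 1 of the 5 carcinoma samples, open circles are the 6 non-tumour arrays (BDCA_nontumor), the vertical bar is the group mean and the thin line its SD. HCC 1 (square) is the carcinoma nearest to non-tumour liver for Gpc3, Phgdh, Cpe, Psat1 and Slpi, and HCC 5 (diamond) is the lowest for Slco2b1, Camkk2, Homer2, Fn3k, Lrit1 and Susd1.

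Among the oncofetal list, 6 of 10 tested members rose and none fell, against 1.31% and 0.511% of all tested genes, with a median difference of 2.01, and 3 further members were below the filter. Besides Gpc3, which was also a marker chosen with these data known, these were Tff3, Afp, Igf2, Golm1 and Sox4. The count was 2 without HCC 6, 4 without HCC 5 or non-tumour 5 and otherwise 5 to 7. Tff3, a mucosal repair peptide, read 1179.8, 253, 1018, 7144 and 9039 against 9.87 to 152 (median 24). Its groups did not overlap, and HCC 5 and 6 were the highest (log2 difference 5.12 ± 0.80, 34.9-fold, adjusted p = 0.00136, between 4.55 without HCC 6 and 5.82 without HCC 2). Afp, the fetal counterpart of albumin, was already bright in non-tumour liver, 1022 to 2074 (median 1558), and read 1762, 6009, 22975, 39274 and 23115 in the carcinomas. HCC 1 lay inside the non-tumour range, and the difference was 2.92 ± 0.70 (adjusted p = 0.0257). Its 4 probe sets gave differences between 0.60 and 4.22. The Afp call was lost without HCC 3+4 (2.68, adjusted p = 0.0685), HCC 5 (2.49, adjusted p = 0.1), HCC 6 (2.68, adjusted p = 0.0888) or non-tumour 5 (2.81, adjusted p = 0.0611), and without HCC 1 the difference was 3.60.

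Igf2, a fetal growth factor expressed from the paternal allele, read 152, 91.9, 178, 581 and 1091 against 5.16 to 98.3 (median 43.4). HCC 2 alone lay inside the non-tumour range (log2 difference 2.47 ± 0.57, adjusted p = 0.0226). The other Igf2 probe set gave a difference of 1.17. The call was lost without HCC 5 (2.22, adjusted p = 0.0809), HCC 6 (2.00, adjusted p = 0.0918), non-tumour 2 (2.21, adjusted p = 0.0572) or non-tumour 5 (2.41, adjusted p = 0.0531). Golm1, a Golgi membrane protein shed into serum, read 458, 967, 1352, 2623 and 4689.8 against 172 to 606 (median 366). HCC 1 alone lay inside the non-tumour range (log2 difference 2.06 ± 0.44, adjusted p = 0.0123), and the call was lost without HCC 6 (1.65, adjusted p = 0.0528). Sox4, a transcription factor of progenitor cells, read 147, 343, 335, 185 and 738 against 82.5 to 132 (median 102). All 5 carcinomas exceeded all non-tumour samples (log2 difference 1.39 ± 0.30, adjusted p = 0.014), and again the call was lost without HCC 6 (1.07, adjusted p = 0.0533). Of the other oncofetal members, Ly6d had a difference of 1.96 ± 0.62 (adjusted p = 0.109) and Dlk1, Igf2bp3 and Sox11 differed by -0.07, -0.11 and 0.40.

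Proteases, their inhibitors and hormone-processing enzymes gave 3 rises and no fall among 17 tested members of that list, against 1.31% and 0.511% of all tested genes (median 0.31, 2 below the filter). Cpe, a carboxypeptidase of the secretory pathway that trims peptide hormones, read 110.2, 1057, 1680.2, 5143 and 1598 against 0.845 to 63.4 (median 30.3). HCC 1 was the lowest carcinoma, above all non-tumour samples (log2 difference 4.75 ± 0.58, adjusted p = 5.74e-05, and 5.54 without HCC 1). Slpi, a secreted inhibitor of leukocyte elastase, read 1031, 7520.4, 6556, 11701 and 5997 against 21.4 to 912 (median 319.6). HCC 1 was far below the other carcinomas, with no overlap between the groups (log2 difference 4.07 ± 0.75, adjusted p = 0.00484, between 3.46 without non-tumour 5 and 4.64 without HCC 1). Plat, tissue plasminogen activator, read 97.7, 798, 4679, 2720.0 and 1078 against 3.37 to 418 (median 32.5). HCC 1 lay inside the non-tumour range (log2 difference 4.27 ± 0.78, adjusted p = 0.00484, 5.07 without HCC 1 and 4.87 without non-tumour 6). Among the uncalled members, the proteases Mmp14, Ctsl and Plau were near the median of the list, with Mmp14 at -0.06, Ctsl at 0.10 and Plau at 0.31.

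Of the other leading genes, Itih5, a hyaluronan-binding protein, read 958, 586, 1819.7, 6143 and 7531 against 4.09 to 382 (median 199), and its lowest non-tumour value came from non-tumour 6, without which the difference of 3.76 ± 0.68 (adjusted p = 0.00454) was 3.16. Its groups did not overlap. Psrc1, a microtubule-associated protein, read 97.7, 62.9, 307, 1115 and 4357 against 1.85 to 41.1 (median 22). Its groups were apart, although HCC 2 was close to the highest non-tumour value (log2 difference 3.58 ± 0.74, adjusted p = 0.00964, 2.74 without HCC 6 and 4.19 without HCC 2). Stc1, a secreted glycoprotein that acts on calcium and phosphate, read 88.2, 439, 67.5, 1435 and 135 against 3.74 to 17.1 (median 6.99). Every carcinoma was above every non-tumour sample, and HCC 5 was highest (log2 difference 3.31 ± 0.57, adjusted p = 0.00284, and 2.67 without HCC 5). Pnliprp1, a relative of pancreatic lipase, read 43.1, 62.4, 3905, 704 and 265 against 3.63 to 41.5 (median 12.2). HCC 1 was only just above the highest non-tumour value, and HCC 3+4 was far above the rest (log2 difference 3.39 ± 0.83, adjusted p = 0.0313, 4.00 without HCC 1). The Pnliprp1 call was lost in 6 of 11 single omissions, with 2.49 (adjusted p = 0.1) without HCC 3+4, 3.10 (adjusted p = 0.1) without HCC 5, 3.44 (adjusted p = 0.0704) without HCC 6, 3.30 (adjusted p = 0.0715) without non-tumour 3, 3.25 (adjusted p = 0.0688) without non-tumour 5 and 3.30 (adjusted p = 0.0528) without non-tumour 6. Of the markers of exocrine pancreas and fat, 7 were below the filter and none of the 4 tested passed (median 0.08). The elastase gene Cela1 read 151, 820.0, 3117, 2469 and 1252 against 114 to 544 (median 295), so that all carcinomas but HCC 1 lay above the non-tumour range (1.82 ± 0.56, adjusted p = 0.0998), and it passed without HCC 1 (2.49, adjusted p = 0.00216). Both Cela1 and Pnliprp1 were highest in HCC 3+4 and lowest in HCC 1. Of the 4 tested markers 3 were above 0 and 1 below. The marker below was Cela3b, which went the other way from Cela1 with a difference of -0.97 (not called). None of the Cela3b probe sets was higher in carcinoma. The summed intensity ran from 408 to 3299 in the carcinomas and from 264 to 4767 in non-tumour liver, and the part of such tissue in the Pnliprp1 value was not tested.

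The genes of the first steps of serine synthesis rose. Phgdh, which commits 3-phosphoglycerate to serine, read 224, 5766, 7568, 15033 and 3885 against 22 to 117 (median 91). HCC 1 was far below the other 4 carcinomas and above all non-tumour samples (log2 difference 5.33 ± 0.64, 40.3-fold, adjusted p = 5.74e-05, and 6.31 without HCC 1). The 4 Phgdh probe sets gave differences of 1.49 to 6.11. Psat1, the aminotransferase of the next step, read 144, 1323, 3278, 7150.1 and 4026 against 48.8 to 106 (median 61.4). As with Phgdh, HCC 1 was lowest and HCC 5 highest, with no overlap (log2 difference 4.49 ± 0.61, 22.4-fold, adjusted p = 0.000174, and 5.37 without HCC 1). Psph, the phosphatase of the last step, read 244, 565, 282, 663 and 831 against 155 to 267 (median 175). All carcinomas but HCC 1 lay above the non-tumour range, and the difference missed the threshold (log2 difference 1.23 ± 0.33, adjusted p = 0.056).

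In the whole list of serine and one-carbon genes, Phgdh and Psat1 were the 2 called members of 15 tested, against 1.31% of all tested genes called higher. Phgdh was also a marker chosen with these data known. In the list 8 members were above 0 and 7 below, and the median was 1.23. The count depended on single samples, with 4 higher and 1 lower without HCC 1, 4 higher without HCC 3+4 or non-tumour 6, and 3 higher without HCC 5, non-tumour 1 or non-tumour 4. The mitochondrial folate enzymes Mthfd2, Mthfd1l and Aldh1l2, picked after their values were seen, had differences of 1.40 ± 0.42, 1.38 ± 0.40 and 1.52 ± 0.48 (adjusted p = 0.0858, 0.071 and 0.108). Of the other folate enzymes, Shmt1 was at -0.37, Shmt2 at -0.68, Mthfd1 at -0.46 and Aldh1l1 at -0.74, and none passed. Gldc, which breaks glycine down, read 2920.4, 33.1, 1082, 485 and 2399 against 462 to 3339 (median 2080.4), with HCC 2 far below the rest (difference -1.29, adjusted p = 0.435).

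Of 17 tested genes of the ATF4 and ER stress list, Asns and Trib3 rose and none fell, against 1.31% and 0.511% of all tested genes, and the median of the list was 0.22. Without HCC 1 there were 4 rises. Asns, asparagine synthetase, read 150.1, 2274, 2444, 2028 and 1469.7 against 14.8 to 384 (median 81.9). HCC 1 lay inside the non-tumour range and the other 4 carcinomas well above it (log2 difference 3.49 ± 0.70, 11.2-fold, adjusted p = 0.00791, between 3.12 without non-tumour 2 and 4.21 without HCC 1). Trib3, a pseudokinase that restrains AKT and ATF4, read 979.7, 1138, 2545, 3712 and 3921 against 388 to 742 (median 453). No sample overlapped, and HCC 1 and 2 were the lowest carcinomas (log2 difference 2.06 ± 0.38, adjusted p = 0.00501). No other member passed. The stress factor Ddit3 was at 1.30 (adjusted p = 0.101), the amino acid transporter Slc7a5 at 1.41 (adjusted p = 0.138), Chac1 at -0.26, and Atf4 mRNA itself at -0.21. The chaperones of the unfolded protein response lay near 0, with Hspa5 at 0.18, Pdia4 at 0.05 and Dnajb9 at 0.22.

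**Figure D2:**
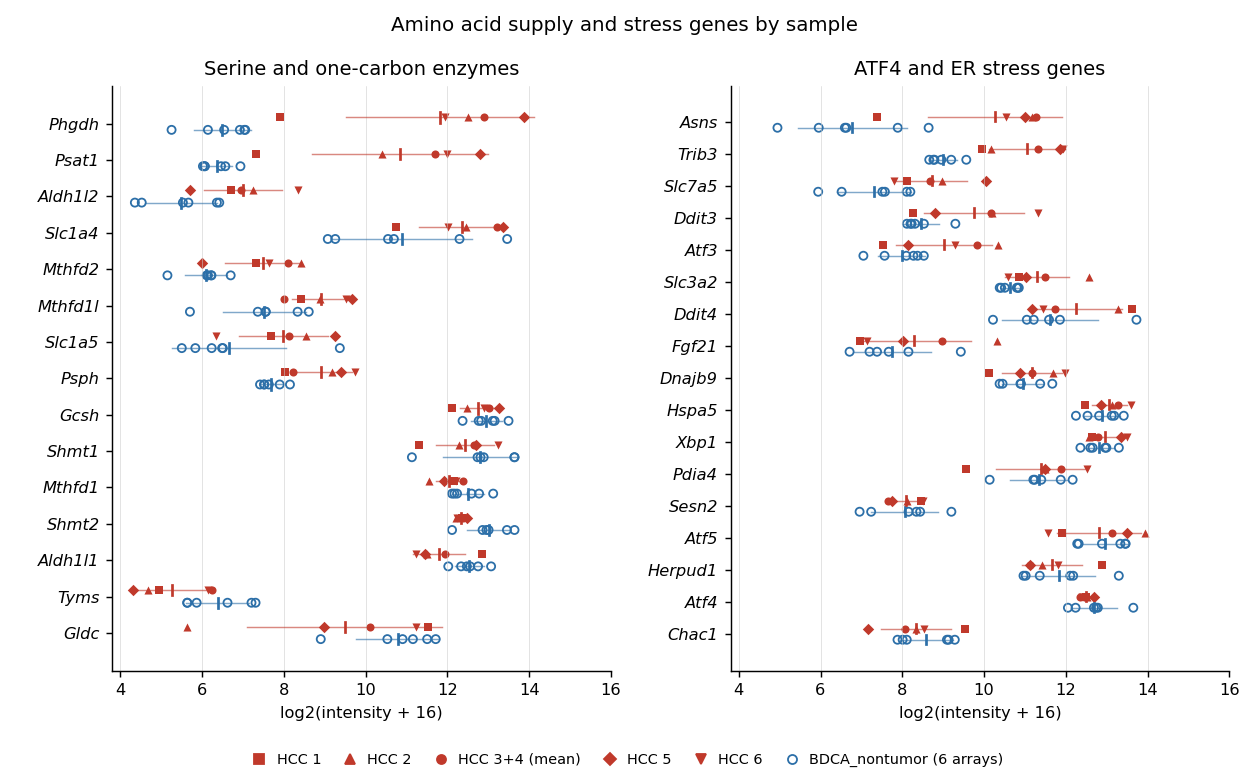
All tested members of the serine and one-carbon list (left, 15 genes) and of the ATF4 and ER stress list (right, 17 genes), ordered by log2 difference. The horizontal axis is log2(intensity + 16), filled symbols are the 5 carcinoma samples, open circles the 6 non-tumour arrays (BDCA_nontumor), vertical bars group means and thin lines SD. Phgdh, Psat1, Asns and Trib3 are the called genes, with HCC 1 (square) the lowest carcinoma in each of these 4 genes, while for Atf4 and Hspa5 the groups overlap.

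Promoters of genes in the serine and ATF4 lists were searched on both strands for TGATGNAAN. ATF4 is known to bind this response element with C/EBP proteins. The sequences are those of RefSeq, build GRCm38.p6, and span the 250 bases before the annotated start, written 5' to 3' along the gene, with a match in capitals. Asns lies on the minus strand at chr6:7693210-7693459, Phgdh on the minus strand at chr3:98339970-98340219 and Psat1 on the minus strand at chr19:15925060-15925309.
Asns: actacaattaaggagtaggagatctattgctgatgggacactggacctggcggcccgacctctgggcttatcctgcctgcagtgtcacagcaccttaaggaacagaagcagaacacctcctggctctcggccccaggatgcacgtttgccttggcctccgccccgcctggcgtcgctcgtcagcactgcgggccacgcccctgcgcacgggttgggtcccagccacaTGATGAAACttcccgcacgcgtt
Phgdh: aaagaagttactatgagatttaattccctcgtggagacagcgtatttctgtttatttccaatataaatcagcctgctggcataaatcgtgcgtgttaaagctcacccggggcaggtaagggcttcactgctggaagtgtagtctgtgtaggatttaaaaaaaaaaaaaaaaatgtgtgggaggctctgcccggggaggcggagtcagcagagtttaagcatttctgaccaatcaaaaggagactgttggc
Psat1: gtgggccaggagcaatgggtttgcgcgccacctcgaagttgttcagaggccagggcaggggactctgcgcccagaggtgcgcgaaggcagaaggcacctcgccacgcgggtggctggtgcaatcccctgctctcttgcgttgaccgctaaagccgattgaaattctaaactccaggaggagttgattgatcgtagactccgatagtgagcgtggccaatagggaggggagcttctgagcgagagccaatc
Asns held 1 match, TGATGAAAC, 23 bases before the start. Trib3 held 1 match, TTTACATCA on the other strand, 13 bases after its start and so outside the upstream bases. No match to these letters lay in the windows of Phgdh, Psat1 or Psph, which were searched to 50 bases past the start, including a second annotated start of Psat1. Of 29 genes of the serine and ATF4 lists with a window in the table, 7 held a match, the others being Chac1, Atf3, Slc1a4, Fgf21 and Herpud1, of which none passed the test. Over all 32851 windows of that length 3.95% held one.

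Growth-factor and cell-cycle genes gave few calls. Igfbp3, a serum carrier of insulin-like growth factors, read 336, 2236, 3227, 4614 and 2073 against 63.8 to 354 (median 202). HCC 1 lay inside the non-tumour range (log2 difference 3.25 ± 0.61, adjusted p = 0.0051, and 3.85 without HCC 1). Igfbp3 was the 1 called member of 14 tested in the growth hormone and IGF list (median -0.30), against 1.31% of all tested genes called higher. That list had 2 rises without HCC 1, and 1 rise and 1 fall without non-tumour 1. Ghr, the growth hormone receptor, and Igf1 were at -1.12 and -0.83 (adjusted p = 0.101 and 0.622). Grb10, an imprinted adaptor that damps insulin signalling, read 759.6, 2246, 5973, 3541 and 3216 against 433 to 958 (median 640.1). HCC 1 was the 1 sample inside the non-tumour range (log2 difference 2.07 ± 0.40, adjusted p = 0.00598). With Igf2 it made 2 calls in 15 tested imprinted genes (median 0.49), against 1.31% of all tested genes called higher. The count was 1 wherever Igf2 lost its call and 3 without HCC 1. Meg3, a noncoding RNA of the Dlk1 locus, read 326, 153, 335, 8067 and 315 against 55.8 to 227 (median 133). HCC 5 was far above the other carcinomas and HCC 2 alone lay inside the non-tumour range. The difference did not pass (2.03 ± 0.82, adjusted p = 0.243).

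Egr1, an immediate early gene of the MAPK pathway, read 2911, 1731, 6898, 6366 and 6820.0 against 371 to 2525 (median 862). HCC 2 lay inside the non-tumour range and HCC 3+4, 5 and 6 far above it (log2 difference 2.23 ± 0.42, adjusted p = 0.00501). It was the 1 called member of 16 in the MAPK output list, against 1.31% of all tested genes called higher. The members of that list were all above 0 with a median of 0.94, among them Ier3 at 1.53 (adjusted p = 0.0703), Etv4 at 1.53 (adjusted p = 0.109), Dusp4 at 1.40 and Dusp6 at 0.71. Without HCC 1, HCC 2 or non-tumour 6, 2 members passed. Phlda3, a p53 target that opposes AKT, read 187, 968, 814, 762 and 1520.3 against 56.1 to 135 (median 73.9). Every carcinoma was above every non-tumour sample (log2 difference 2.91 ± 0.36, adjusted p = 5.74e-05). The other 12 tested p53 targets did not pass, with Cdkn1a at 1.89 ± 0.61 (adjusted p = 0.115), Gtse1 at 1.44 and Mdm2 at 0.56, and the list median was 0.44. Without HCC 1 or non-tumour 1, 3 p53 targets passed. Cdkn2b, the cell-cycle inhibitor p15, read 102, 568, 354, 1500.4 and 3658 against 29.1 to 198 (median 79.9). HCC 1 lay inside the non-tumour range and HCC 6 was highest (log2 difference 2.85 ± 0.63, adjusted p = 0.0165), and the call was lost without HCC 5 (2.56, adjusted p = 0.0639) or HCC 6 (2.24, adjusted p = 0.0693) and was 3.48 without HCC 1.

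No mitosis gene passed, although all 23 tested members were above 0 with a median of 1.00 against 0.05 for all genes, and 3 of them (Bub1b, Ccnb2 and Plk1) did not overlap between the groups, against 1.07% of all tested genes that were apart with carcinoma higher. Bub1b, a spindle checkpoint kinase, read 84, 151, 89.8, 79.5 and 96.2 against 6.38 to 44.3 (median 19.1) (log2 difference 1.63 ± 0.49, adjusted p = 0.0855). Ccnb2, a mitotic cyclin, read 285, 221, 180.0, 422 and 210.3 against 39.2 to 119 (median 66.1) (log2 difference 1.63 ± 0.52, adjusted p = 0.112). Mki67, the proliferation marker, read 1307, 592, 1837, 2760.1 and 609 against 206 to 875 (median 281), so that HCC 2 and 6 lay inside the non-tumour range (1.67 ± 0.60, adjusted p = 0.17). In the DNA replication list 19 of 22 members were above 0, none passed, and the median was 0.52. The replication helicase subunit Mcm6 (1.26 ± 0.39, adjusted p = 0.0992) and the ligase Lig1 (0.94 ± 0.33, adjusted p = 0.151) passed without HCC 1, at 1.55 (adjusted p = 0.0199) and 1.17 (adjusted p = 0.0368).

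No Wnt target or feedback gene passed among 18 tested (median 0.79, 16 above 0), whereas 3 passed without HCC 1 and 1 without HCC 2 or non-tumour 1. Axin2, the standard feedback target of beta-catenin, read 276, 3466, 2099.5, 1842 and 438 against 299.8 to 1509 (median 456). HCC 2, 3+4 and 5 were above all non-tumour samples and HCC 1 was below them all (1.00 ± 0.47, adjusted p = 0.349, without HCC 1 1.48, adjusted p = 0.0429). Lef1, a nuclear partner of beta-catenin picked after its values were seen, divided the carcinomas the same way, at 14.7, 769.9, 336, 710.0 and 59.3 against 17.4 to 323 (median 58.7) (1.35 ± 0.64, adjusted p = 0.363). Apcdd1, a Wnt inhibitor, read 464, 62.3, 1134, 472 and 224 against 9.05 to 170.1 (median 73.8). HCC 2 was the 1 carcinoma inside the non-tumour range, and the difference of 2.09 ± 0.56 (adjusted p = 0.0518) passed without HCC 2 (2.63, adjusted p = 0.00909) or non-tumour 1 (2.33, adjusted p = 0.0287). The 6 Apcdd1 probe sets gave differences of 0.25 to 2.09, the one used being the highest. Tnfrsf19, a Wnt-responsive receptor, was at 0.96 ± 0.38 (adjusted p = 0.218) and passed without HCC 1 (1.36, adjusted p = 0.0179). The 3 Tnfrsf19 probe sets gave differences of 0.21 to 0.96, again with the one used highest. Ctnnb1, which encodes beta-catenin, was at 0.06 ± 0.15 (adjusted p = 0.932), and Glul, a pericentral target of beta-catenin, at 0.25 ± 0.29 (adjusted p = 0.813). In the receptor and Ras pathway list no member of 17 passed, with 1 lower without non-tumour 1. The Notch and hedgehog list had none of 18, with 2 higher without HCC 1 and 1 higher without HCC 3+4 or non-tumour 1.

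Of 20 tested collagen and matrix genes 3 rose, against 1.31% of all tested genes, all parts of or partners of the basement membrane. Col4a2, a chain of type IV collagen, read 3483, 3651, 6354, 3791 and 3366 against 988 to 2543 (median 1365). Each carcinoma lay above the non-tumour range, HCC 3+4 being highest (log2 difference 1.51 ± 0.28, adjusted p = 0.00484). Nid1, which links laminin to type IV collagen, read 5082, 2569, 7942, 9548 and 10661 against 1291 to 3631 (median 1787), with HCC 2 inside the non-tumour range (log2 difference 1.77 ± 0.35, adjusted p = 0.00643). Sparc, a collagen-binding glycoprotein, read 3151, 3467, 7091, 10378 and 8441 against 1428 to 3019.8 (median 2228). The groups did not overlap in the brightest probe set (log2 difference 1.36 ± 0.32, adjusted p = 0.0254), but its 3 probe sets ranged from -0.14 to 1.65. The Sparc call was lost in 7 of 11 single omissions, namely without HCC 3+4 (1.29, adjusted p = 0.0608), HCC 5 (1.15, adjusted p = 0.0996), HCC 6 (1.23, adjusted p = 0.0908) or non-tumour 2, 3, 4 or 5 (adjusted p = 0.0501 at the lowest and 0.0996 at the highest over the 7). Col4a1, the partner chain of Col4a2, was at 1.09 ± 0.30 (adjusted p = 0.0606). The fibrillar chains Col1a1, Col1a2 and Col3a1 were at 2.11, 1.14 and 1.18, with HCC 3+4 the highest sample in each, at 3175, 2796 and 3266.

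Among the genes that fell, sulfotransferases led. Sult3a1, a liver sulfotransferase, read 604, 10.5, 270.1, 12.6 and 101 against 1025 to 13426 (median 7839.5). No carcinoma reached the non-tumour range, and HCC 2 and 5 were near the bottom of the scale (log2 difference -5.43 ± 1.18, 43.2-fold lower, adjusted p = 0.0143). The call was lost without HCC 5 (-4.95, adjusted p = 0.0538), and without HCC 1 the difference was -6.06. Sult2a8, which sulfonates bile acids, read 176, 26.1, 78.4, 47.1 and 42.5 against 299.5 to 4226 (median 2276). Every carcinoma was below every non-tumour sample, HCC 1 being the highest (log2 difference -4.21 ± 0.56, 18.5-fold lower, adjusted p = 0.00012). With Ugt2a3, a glucuronosyltransferase, at 3606, 1674, 2142, 1166 and 1804 against 2962 to 7473 (median 5625) (log2 difference -1.36 ± 0.29, adjusted p = 0.0113, HCC 1 inside the non-tumour range), they made 3 falls in 23 tested conjugation enzymes, against 0.511% of all tested genes. The list median was -0.29, and the count was 4 falls and 1 rise without HCC 1 and 2 falls without HCC 5. The abundant transferases Gstm1, Gstp1 and Sult1a1 were at -0.06, 0.18 and 0.05.

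Cytochrome P450 genes gave 2 falls in 20 tested, against 0.511% of all tested genes (median -0.75, 17 below 0). Without HCC 1 there were 6 falls and 1 rise (median -1.16), without HCC 5 none, and without HCC 2, HCC 6 or non-tumour 2, 4 or 5 there was 1. Cyp2f2, a periportal P450, read 4965, 61.6, 577, 105 and 1624 against 920.0 to 9448 (median 7506). HCC 2 and 5 were the lowest, and HCC 1 and 6 lay inside the non-tumour range (log2 difference -3.17 ± 0.76, adjusted p = 0.0261). Its call was lost in 6 of 11 single omissions, those of HCC 2 (-2.47, adjusted p = 0.0811), HCC 5 (-2.63, adjusted p = 0.102) and each of non-tumour 2 to 5, and the difference was -3.97 without HCC 1. Cyp2c54, of the Cyp2c family, read 3224, 395, 1907, 86.8 and 294 against 3159 to 10647 (median 4192). HCC 1 alone reached the non-tumour range (log2 difference -3.03 ± 0.66, adjusted p = 0.0142), and the call was lost without HCC 5 (-2.39, adjusted p = 0.0565) or HCC 6 (-2.79, adjusted p = 0.0528), with -3.64 without HCC 1. Its relatives Cyp2c50 and Cyp2c37 were at -1.44 and -1.60 (adjusted p = 0.0762 and 0.15) and passed without HCC 1, at -1.87 (adjusted p = 0.00443) and -2.03 (adjusted p = 0.0319). Near-identical family members may share probes, which was not tested. Cyp2e1 and Cyp3a11, among the most abundant P450 mRNAs, were at -0.53 and -0.52.

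The carriers Slco2b1 and Slc22a26 also fell. Slco2b1, an organic anion carrier, read 1955, 1028, 1274, 118 and 246 against 2576 to 5302 (median 4022). The groups did not overlap, with HCC 5 and 6 lowest (log2 difference -2.63 ± 0.45, adjusted p = 0.00254, and -2.08 without HCC 5). Slc22a26, of the organic anion transporter family, read 703, 609, 1644, 0.8288 and 100.04 against 1054 to 7175 (median 4139). HCC 3+4 lay inside the non-tumour range and HCC 5 had almost no signal (log2 difference -3.70 ± 0.92, adjusted p = 0.0331). Its call was lost in 6 of 11 single omissions, with -2.70 (adjusted p = 0.121) without HCC 5, -3.39 (adjusted p = 0.106) without HCC 6 and a lowest adjusted p of 0.0597 among the omissions of non-tumour 2 to 5. Slc10a1, the bile acid carrier Ntcp, was below every non-tumour value in every carcinoma and missed the threshold (-1.17 ± 0.32, adjusted p = 0.0559), passing without HCC 1 (-1.32, adjusted p = 0.0199), HCC 3+4 (-1.33, adjusted p = 0.0406) or non-tumour 1 (-1.25, adjusted p = 0.0435). None of 20 tested bile acid genes passed (median -0.70), with 3 falls and 1 rise without HCC 1 and 1 fall without HCC 3+4 or non-tumour 1.

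Of the other enzymes that fell, Hacl1, which shortens branched and hydroxylated fatty acids in the peroxisome, read 4474, 2054, 3134, 1558 and 1299 against 5539.7 to 10192 (median 9019.6). All carcinomas were below all non-tumour samples (log2 difference -1.81 ± 0.28, adjusted p = 0.00131). Nudt7, a peroxisomal hydrolase of coenzyme A, read 1438, 2240.1, 2302, 1188 and 1382 against 2694 to 5896 (median 4991), also without overlap (log2 difference -1.46 ± 0.30, adjusted p = 0.00929). Fn3k, a kinase that repairs glycated proteins, read 323, 209, 175, 10.3 and 55.4 against 441 to 581 (median 477). Again there was no overlap, and HCC 5 and 6 were lowest (log2 difference -2.05 ± 0.53, adjusted p = 0.0405). The Fn3k call was lost without HCC 5 (-1.50, adjusted p = 0.148), HCC 6 (-1.86, adjusted p = 0.129) or any 1 of non-tumour 2 to 6 (lowest adjusted p over these 7 omissions 0.0566). Fitm1, which helps form lipid droplets, read 173, 554, 287, 22.6 and 13.9 against 472 to 668 (median 613). HCC 2 lay inside the non-tumour range (log2 difference -2.25 ± 0.54, adjusted p = 0.0261), and the call was lost without HCC 5 (-1.81, adjusted p = 0.102), HCC 6 (-1.71, adjusted p = 0.103) or non-tumour 3, 4 or 5. Afmid, an enzyme of tryptophan breakdown, read 3088, 1043, 934, 506 and 1022 against 1593 to 4959 (median 3372), with HCC 1 inside the non-tumour range (log2 difference -1.48 ± 0.38, adjusted p = 0.0405). The Afmid call was lost in 9 of 11 single omissions (adjusted p up to 0.151), all but those of HCC 1 and non-tumour 6. The 3 Afmid probe sets ranged from -1.48 to -0.30.

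The other leading falls were signalling and secreted proteins. Camkk2, a kinase upstream of AMPK, read 554, 173, 354, 2.82 and 408 against 584 to 1612 (median 1217). HCC 5 was far below the rest, and without it the difference went from -2.42 ± 0.60 (adjusted p = 0.0329) to -1.57 (adjusted p = 0.075). The call was also lost without HCC 2 (-2.40, adjusted p = 0.0601) or non-tumour 2, 3, 4 or 6 (adjusted p up to 0.0818). The other Camkk2 probe set gave a difference of -0.50. Homer2, a scaffold protein, read 253, 293, 243, 3.3 and 138 against 336 to 1502 (median 747). HCC 5 was again the lowest (log2 difference -2.28 ± 0.49, adjusted p = 0.0134, and -1.56 without HCC 5). Susd1, a membrane protein, read 234, 166, 155, 13.7 and 146 against 304 to 648 (median 384) (log2 difference -1.75 ± 0.42, adjusted p = 0.0289). The groups did not overlap, but the call was lost without HCC 5 (-1.22, adjusted p = 0.0869), HCC 6 (-1.83, adjusted p = 0.0528) or non-tumour 2, 3 or 5.

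Arhgap26 read 363, 168, 313, 165 and 324 against 623 to 1499.7 (median 746). All carcinomas were below all non-tumour samples in the brightest probe set (log2 difference -1.59 ± 0.28, adjusted p = 0.0036). The 4 Arhgap26 probe sets ranged from -1.59 to -0.14, and the call was lost in 2 of 30 alternatives (adjusted p up to 0.153). Lrtm1 and Lrit1, membrane proteins with leucine-rich repeats, were dim in every carcinoma. Lrtm1 read 14.8, 8.52, 9.73, 34.4 and 32.3 against 53.9 to 508 (median 200.0) (log2 difference -2.50 ± 0.58, adjusted p = 0.0228), and its call was lost without HCC 2, HCC 3+4 or non-tumour 2, 3 or 5 (adjusted p = 0.0521 to 0.0612). Lrit1 read 50.8, 43.5, 61.1, 2.11 and 5.35 against 104 to 257 (median 149) (log2 difference -2.04 ± 0.39, adjusted p = 0.0051). Neither gene overlapped between the groups. Apon, an apolipoprotein, read 5312, 1374, 5363, 1563 and 2425 against 6394 to 11963 (median 8444). There was no overlap (log2 difference -1.66 ± 0.43, adjusted p = 0.0402), but the call was lost in 8 of 11 single omissions, with -1.41 (adjusted p = 0.109) without HCC 2, -1.46 (adjusted p = 0.136) without HCC 5, -1.62 (adjusted p = 0.101) without HCC 6 and the rest among non-tumour 2 to 6. F7, coagulation factor VII, read 2491, 970.3, 1749.7, 1470.5 and 1451 against 1951 to 9489 (median 4353), with HCC 1 inside the non-tumour range (log2 difference -1.40 ± 0.30, adjusted p = 0.0123). It was the 1 called member of 24 tested complement and coagulation genes (median -0.31), against 0.511% of all tested genes called lower.

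Several liver lists lay below 0 with few or no calls, beside 0.511% of all tested genes called lower. All 19 tested amino acid breakdown genes were below 0 with a median of -0.98, and 1 of them, Afmid, passed. Without HCC 1 there were 6 falls, and in the 9 omissions in which Afmid lost its call there was none. Cth, which makes cysteine and was picked after its values were seen, read 8144, 557, 923, 668 and 1056 against 2194 to 6678 (median 4646). HCC 1 lay above the non-tumour range and the other 4 carcinomas below it (-1.71 ± 0.50, adjusted p = 0.0746). Of 20 acute phase and iron genes 19 were below 0 (median -0.99, lowest -3.32), and 1 passed. Without HCC 1 there were 5 falls, and in the 8 omissions of HCC 2, 5 or 6 or non-tumour 1 to 5 there was none. That was Orm3, a plasma acute phase glycoprotein, at 2504, 4.7, 104, 14.1 and 20.8 against 380.3 to 3226 (median 597). HCC 1 lay at the top of the non-tumour range and the other 4 below it (log2 difference -3.16 ± 0.82, adjusted p = 0.0423). The Orm3 call was lost in 9 of 11 single omissions (adjusted p up to 0.143), all but those of HCC 1, where it was -4.35, and non-tumour 6. The hepcidin genes, which control iron, differed among the carcinomas. Hamp read 50582, 351, 33409, 61.5 and 20059 against 7265 to 46852 (median 31269.9), so that HCC 2 and 5 were far below the others (-2.78 ± 1.20, adjusted p = 0.29). Hamp2 read 12203, 12.7, 13214, 498 and 4243 against 2952 to 36874 (median 24372) (-3.32 ± 1.12, adjusted p = 0.134), and Saa1, a serum amyloid, read 14745, 185, 14136, 121 and 618 against 4318 to 30243 (median 12279) (-3.25 ± 1.02, adjusted p = 0.108).

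**Figure D3:**
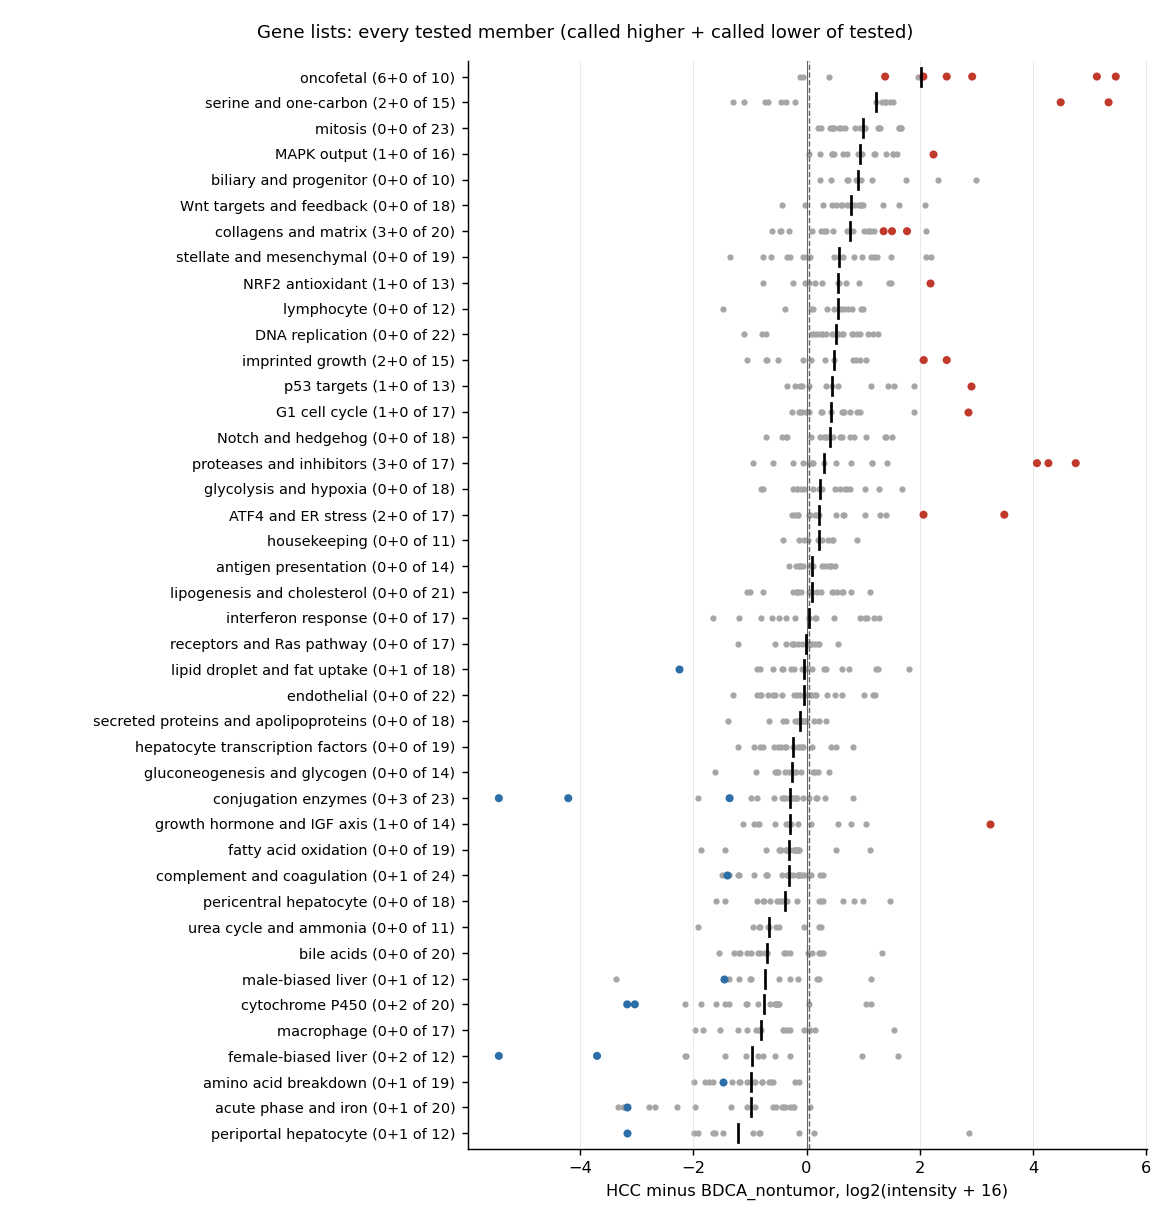
Differences of all tested members of every list with at least 10 tested genes, ordered by list median. The horizontal axis is the carcinoma minus non-tumour difference on the log2(intensity + 16) scale, each point is 1 gene (red called higher, blue called lower, grey not called), the black tick is the list median and the dashed line the median of all tested genes (0.05). The oncofetal list has the highest median (2.01, 6 of 10 called) and the periportal list the lowest (-1.20, 1 of 12 called). Without HCC 2 the periportal list loses this rank (-0.63) to the male-biased list (-0.89).

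Among zone-specific genes the periportal list had 10 of 12 members below 0 (median -1.20) and 1 call, Cyp2f2, against 0.511% of all tested genes called lower. Without HCC 2 its median was -0.63 with 1 rise and no fall, and without HCC 1 it was -1.40 with 4 falls and 1 rise. It had no call without HCC 5 or non-tumour 2, 3 or 5, 2 falls without HCC 6 or non-tumour 1, and 1 rise without non-tumour 4. The pericentral list had 11 of 18 below 0 (median -0.38, no call). Its median was 0.09 without HCC 1, with 1 rise and 2 falls, and -0.03 without HCC 6, and 1 member passed without non-tumour 3 or 6. Pck1, which drives gluconeogenesis, was at -1.61 ± 0.50 (adjusted p = 0.0959), and Otc, of the urea cycle, at -1.92 ± 0.56 (adjusted p = 0.0774). Both passed without HCC 1, at -2.18 (adjusted p = 0.00266) and -2.22 (adjusted p = 0.0261), Otc also without HCC 6 (-2.32, adjusted p = 0.0463) or non-tumour 1 (-2.21, adjusted p = 0.0337). Cps1, the entry enzyme of the urea cycle, read 24954, 2482, 13679, 8090.0 and 16483 against 8902 to 29685 (median 20904). HCC 2 and 5 lay below the non-tumour range and HCC 1, 3+4 and 6 inside it (-0.94 ± 0.73, adjusted p = 0.658). The lowest non-tumour value, 8902, came from non-tumour 6, and the other non-tumour samples read 18937 to 29685. Cdh1, an adhesion protein counted in the periportal list, read 850.1, 174, 3996, 7326 and 9118 against 121 to 751 (median 297). HCC 2 alone lay inside the non-tumour range (2.86 ± 0.77, adjusted p = 0.0518). The urea cycle list had 9 of 11 members below 0 (median -0.67), the gluconeogenesis list 10 of 14 (-0.26) and the fatty acid oxidation list 17 of 19 (-0.30), all without a call. Without HCC 1 the urea cycle list had 2 falls and the gluconeogenesis list 1, and without HCC 6 or non-tumour 1 the urea cycle list had 1. The fatty acid oxidation median was 0.02 without HCC 2, and the gluconeogenesis median -0.03 without HCC 6. Secreted proteins and apolipoproteins had 15 of 18 below 0 but a median of only -0.12, and hepatocyte transcription factors 15 of 19 (-0.24), again with no call (1 fall among the transcription factors without HCC 1).

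Lipogenesis and cholesterol synthesis gave no call among 21 tested (median 0.09), with 3 rises without HCC 1 and a median below 0 without HCC 2 (-0.03), HCC 5 (-0.08) or non-tumour 1 (-0.21). Sqle, which oxidises squalene, read 159, 3954, 2050.3, 1604 and 2544 against 125 to 1157 (median 840.2). Its lowest values came from HCC 1 and non-tumour 1, and the difference of 1.13 ± 0.56 (adjusted p = 0.401) was 1.88 (adjusted p = 0.00946) without HCC 1. In the glycolysis list none of 18 passed (median 0.24), with 2 rises without HCC 1 and 1 without non-tumour 1 or 6. Pkm, whose M2 form is common in tumours, read 1215, 5781, 1991, 3187 and 1158 against 412 to 1878 (median 808) (1.28 ± 0.39, adjusted p = 0.0898), and Pfkp, the platelet form of phosphofructokinase, read 267, 4148, 314, 235 and 773 against 83.6 to 303 (median 176) (1.68 ± 0.53, adjusted p = 0.106). HCC 2 was the highest sample in both, and both passed without HCC 1, at 1.49 (adjusted p = 0.0301) and 1.95 (adjusted p = 0.0415). The NRF2 antioxidant list had 1 call in 13 tested (median 0.55, with 2 calls without HCC 1 or HCC 6), against 1.31% of all tested genes called higher. Its mean log2 level was 11.42 in HCC 2 against 9.73 to 10.03 in the other carcinomas. The called gene was Cbr3, a carbonyl reductase, at 222, 1729, 366, 431 and 379.9 against 50.3 to 132 (median 113). The groups did not overlap (log2 difference 2.18 ± 0.43, adjusted p = 0.00637, and 1.72 without HCC 2). Srxn1 and Gclc, picked after their values were seen, read 9287 and 9248 in HCC 2 against highest values of 1481 and 4482 in non-tumour liver.

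Sex-biased liver genes need the sex of the samples, which the labels do not give. Of 12 tested female-biased genes 2 fell, Sult3a1 and Slc22a26 (median -0.96), and of 12 male-biased genes 1 fell, Nudt7 (median -0.73). Of all tested genes 0.511% were called lower. The female-biased count was 0 without HCC 5 and 1 without HCC 6 or non-tumour 2, 3, 4 or 5, and the male-biased count was 2 without HCC 1, HCC 3+4 or non-tumour 1. Without the 5 arrays that carried Xist, non-tumour 6 and 4 vehicle arrays, the differences were -5.79 (adjusted p = 0.000849) for Sult3a1, -3.77 (adjusted p = 0.0375) for Slc22a26 and -1.39 (adjusted p = 0.0135) for Nudt7. Of 49 called genes followed by name 10 then lost their call, namely Orm3, Pnliprp1, Camkk2, Fn3k, Susd1, Apon, Igf2, Cdkn2b, Fitm1 and Afp, with Orm3 at -3.30 (adjusted p = 0.0886) and Afp at 3.01 (adjusted p = 0.0703). Sult2a8 was then at -4.55 (adjusted p = 0.000849), Bex1 at 5.92 (adjusted p = 4.52e-05), Phgdh at 5.26 (adjusted p = 0.000971) and Gpc3 at 4.93 (adjusted p = 0.00192). Mup3, a male-biased urinary protein, read 2184, 202, 8591, 10.1 and 2917 against 1631 to 20293 (median 10366). HCC 2 and 5 were lowest (-3.36 ± 0.96, adjusted p = 0.0703), and it passed without HCC 1 (-3.73, adjusted p = 0.0344), HCC 3+4 (-4.22, adjusted p = 0.0186) or non-tumour 1 (-3.82, adjusted p = 0.0334). The Y-linked gene Eif2s3y read 30.4 in HCC 5 and 1316 to 1931 in the other carcinomas, while Kdm5d, also Y-linked, read 403 in HCC 5 and 454 to 895 in the others.

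No marker of another cell type passed in the macrophage, endothelial, stellate, biliary, lymphocyte, granulocyte and erythroid lists, but single samples stood apart. In bulk tissue fewer cells of a type and less RNA per cell cannot be told apart. None of 17 tested macrophage markers passed (median -0.80, 3 above 0 and 14 below). Without HCC 5 their median was -0.07, without HCC 1 there were 2 falls and without non-tumour 6 there was 1 rise. Their mean log2 level was 7.53 in HCC 5 and 9.75 to 10.87 in the other carcinomas, against 9.78 to 10.45 in non-tumour liver, and their summed intensity ran from 11698 to 73129 in the carcinomas and from 38919 to 62237 in non-tumour liver. Vsig4, a complement receptor of Kupffer cells, read 3319.7, 1496, 1025, 10.6 and 1043 against 1799.6 to 3052 (median 2609) (difference -1.83, adjusted p = 0.226). The endothelial list had no call in 22 (median -0.05, and 0.27 without HCC 5, with 1 fall without HCC 1), with 7.84 in HCC 5 and 9.29 to 9.83 in the other carcinomas, against 8.67 to 9.73 in non-tumour liver, and a summed intensity of 9917 to 33410.0 in the carcinomas and 17558 to 29162 in non-tumour liver. HCC 5, which held the lowest values of Slco2b1, Camkk2, Homer2, Fn3k and Susd1, was also the sample with the least macrophage and endothelial signal, and the part of that in these genes was not tested.

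**Figure D4:**
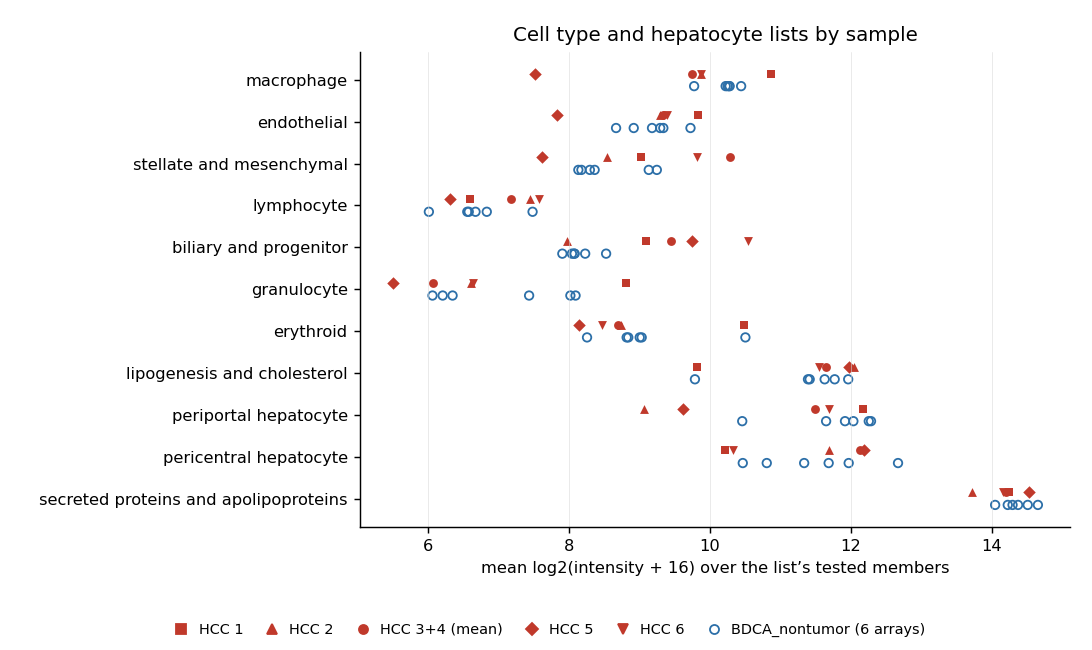
Mean level of the tested members of each cell type or hepatocyte list in each sample. The horizontal axis is the mean of log2(intensity + 16), filled symbols are the 5 carcinoma samples and open circles the 6 non-tumour arrays (BDCA_nontumor). HCC 5 (diamond) is lowest in the macrophage, endothelial and stellate lists, and HCC 1 (square) with 1 non-tumour array stands apart in the lipogenesis and erythroid lists.

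Stellate and mesenchymal markers had no call in 19 (median 0.57, 1 rise without HCC 5), and their mean level ran from 7.62 in HCC 5 to 10.29 in HCC 3+4, against 8.14 to 9.25 in non-tumour liver. Beside the rises in Col4a2, Nid1 and Sparc, this level was highest in HCC 3+4 and lowest in HCC 5, while Nid1 and Sparc were higher in HCC 5 than in HCC 3+4. The summed intensity of these markers ran from 11493 to 49351 in the carcinomas and from 11403 to 30642 in non-tumour liver, and their part in the matrix genes was not tested. All 10 tested biliary and progenitor markers were above 0 (median 0.91, none called, 2 without HCC 1 or HCC 2, 4 below the filter), and their mean was 9.10 to 10.55 in 4 carcinomas, 7.97 in HCC 2 and 7.91 to 8.53 in non-tumour liver. Tspan8, a tetraspanin, read 257, 65.4, 2132, 3838 and 9375 against 50.6 to 202 (median 138). HCC 2 lay inside the non-tumour range (3.00 ± 0.83, adjusted p = 0.0612), and it passed without HCC 1 (3.51, adjusted p = 0.0161) or HCC 2 (3.94, adjusted p = 0.00463). The defining bile duct keratins Krt7 and Krt19 were at 0.73 and 0.87. Lymphocyte markers had no call in 12 tested (median 0.55), granulocyte markers none in 7 (-0.40) and erythroid markers none in 4 (0.14, and -0.14 with 1 fall without HCC 1), with Klf1, an erythroid factor, at 2336 in HCC 1 and 72.4 to 198 in the other carcinomas. The antigen presentation and interferon lists had none in 14 and 17 (medians 0.09 and 0.05), with 1 interferon gene lower without HCC 1. Markers of hepatoblastoma tissue were all 9 above 0 (median 0.97) without a call, the highest levels lying in HCC 1 and HCC 3+4 (means 7.59 and 7.71, against 5.05 to 5.99 in non-tumour liver).

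The same carcinomas and non-tumour samples can be set beside vehicle normal liver and HB in the same fit, comparisons that share samples with the one above and are given side by side only. Vehicle replicates 1, 2, 4 and 5 carried Xist, as did non-tumour 6 but no carcinoma array. The part of sex in the differences from vehicle liver was not tested. Non-tumour against vehicle liver had 14 calls of 14086 (0.0994%, with 0.0781% higher and 0.0213% lower). Carcinoma against vehicle liver had 1019 (7.23%, with 4.36% higher and 2.88% lower), and HB against carcinoma had 7126 (50.6%, with 28.9% higher in HB and 21.6% lower). Against vehicle liver, carcinoma differed by 5.30 (adjusted p = 1.79e-05) for Bex1, 6.40 (adjusted p = 1.79e-05) for Gpc3 and 4.62 (adjusted p = 8.28e-05) for Phgdh, and non-tumour liver by -0.22 (adjusted p = 0.933), 0.94 (adjusted p = 0.681) and -0.71 (adjusted p = 0.733). Sult2a8 was at -6.77 (adjusted p = 6.16e-08) in carcinoma and -2.56 (adjusted p = 0.0505) in non-tumour liver against vehicle liver, so that non-tumour liver lay between the other groups. HB read 129 to 1967 for Gpc3, 8.7 to 293 for Tff3 and 8.4 to 589 for Slpi, with HB minus carcinoma differences of -4.06 (adjusted p = 4.68e-05), -5.47 (adjusted p = 3.5e-06) and -5.31 (adjusted p = 1.76e-06). For Phgdh it read 2407 to 3766 (-0.33, adjusted p = 0.689). Homer2, low in carcinoma, read 1630.2 to 3352 in HB (4.02, adjusted p = 1.91e-07).

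The genes most like the markers over all 23 samples were named by Pearson correlation, as a description over samples that share the group structure. Closest to Bex1 were Wnk4, Atp10a, Ddr1, Cpe and Plat, with r of 0.932, 0.924, 0.924, 0.922 and 0.915, and carcinoma minus non-tumour differences of 1.93, 2.60, 2.96, 4.75 and 4.27. Closest to Phgdh were Psat1, Cpe, Rbp7, Itga3 and Elovl7, with r from 0.947 down to 0.899 and differences of 4.49, 4.75, 2.49, 1.60 and 3.51. Closest to Gpc3 were BC040756, Akr1c18, Galnt6, Nucb2 and 2310034O05Rik, with r from 0.877 down to 0.819 and differences of 2.64, 5.16, 2.67, 2.75 and 2.90. Cpe thus stood in the lists of both Bex1 and Phgdh, while the list of Gpc3, which is lower in HB, shared no gene with them.

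Differences along chromosomes were described after the values were seen, with no test, as the median over genes of 1 chromosome of each sample's log2 difference from the non-tumour mean, for 6147 bright genes (mean log2 level over 9). HCC 1 stayed between -0.04 and 0.04 on every chromosome. HCC 2 had 11 chromosomes at or past 0.15, the lowest being chromosomes 10 (-0.26), 5 (-0.22) and 19 (-0.20) and the highest chromosomes X (0.38), 15 (0.23), 3 (0.22) and 2 (0.22). HCC 3+4 and HCC 5 had the lowest values on chromosome 14, at -0.29 in each, where 24.5% and 31.4% of 220 genes were above the non-tumour mean, and HCC 3+4 was at 0.20 on chromosome 15. HCC 6 was at 0.17 on chromosome X. The non-tumour arrays stayed between -0.08 and 0.11 apart from chromosome 4 in non-tumour 6 (-0.22, 384 genes), and the non-tumour values of chromosome 14 lay between -0.02 and 0.02. The signs of the values at or past 0.15 held under 7 alternatives. These changed the brightness cut, the reference mean (vehicle normal liver instead of non-tumour liver) or both. They gave -0.30 to -0.21 for chromosome 14 in HCC 3+4 and -0.27 to -0.18 in HCC 5. Copy number was not measured, and the origin of these shifts was not tested.

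**Figure D5:**
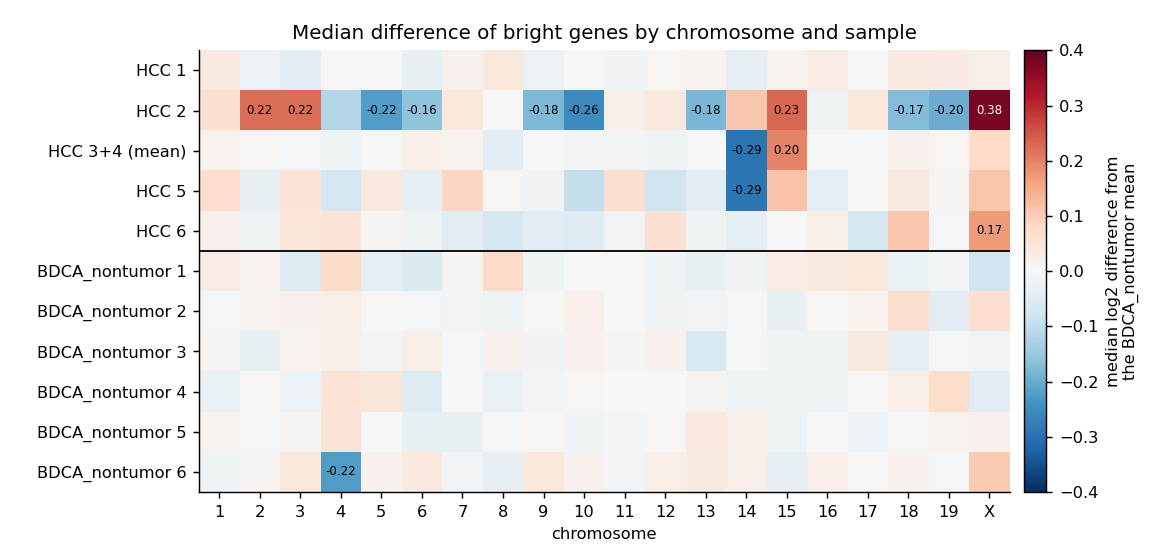
Median log2 difference from the non-tumour mean of the bright genes on each chromosome (columns) in each sample (rows), for the 5 carcinoma samples above the black line and the 6 non-tumour arrays (BDCA_nontumor) below it. Red is higher, blue lower, and values at or past 0.15 are printed. HCC 2 carries most of the large values, chromosome 14 is at -0.29 in both HCC 3+4 and HCC 5, and HCC 1 is near 0 throughout.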

How the data were processed

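Liver RNA of 24 samples was amplified with WT-Ovation Pico, labelled with biotin and hybridised to 1-colour Affymetrix arrays, per the labels' protocols. Only the value table of the series matrix was used. Its values are intensities on a linear scale that the authors made with MAS5, per the submitters' processing notes, in which a version is not given. Each array's mean after cutting 2% from each end was 500 in the deposited intensities. Of 45101 probe sets, 34945 had 1 gene symbol in the platform annotation, 932 several and 9160 none, and 64 were controls. Through gene identifiers 34741 matched RefSeq GRCm38.p6 and took its symbols.

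Intensities were tested as log2(intensity + 16) with limma 3.58.1 in R 4.3.3, with 1 mean per group over 23 samples (5, 6, 6 and 6), an intensity trend and Benjamini-Hochberg adjustment over 14086 genes. Probe sets entered with a 6th highest value over 66.3, the 40th percentile of all values, and a gene took its brightest kept probe set. A call is an adjusted p under 0.05. HCC 3 and 4 were averaged because of the small spread of their log2 differences over 10416 probe sets. Its measure, the scaled median absolute deviation, was 0.194, and 0.419 for the next closest pair within a group. Whether they are 1 library, 1 extract or 1 tumour cannot be told apart. Array measures were compared with exact permutation tests (SciPy 1.17.1, Python 3.11.15), figures drawn with matplotlib 3.10.9, and the model was tested on simulated data. The genes named were the 3 markers, the 12 with the largest fold in each direction among the calls without overlap between the groups, up to 5 called members of each list (otherwise 2 by adjusted p), a fixed set of 9 (Afp, Alb, Glul, Ctnnb1, Axin2, Igf2, Xist, Cps1 and Mki67) and the 5 most like each marker. Genes named beyond these were chosen after their values were seen. The comparison, the markers and the gene lists were chosen with earlier results of these data known. Alternatives covered the pseudocount, scaling, filter, probe set rule, trend, array weights, groups in the fit, arrays kept apart, replicate block and omitted samples.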

Additional observations from a re-analysis of the deposited data

Results flagged for a closer look

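In 33 of 326 sets of values examined (a gene or list mean within 1 group), the highest or lowest sample lay far from the others by Dixon's test at 95%, which flags about 1 set in 20 by chance. Non-tumour 5 was never such a sample.

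HCC 1 held 9 of them. Its intensity was low for Slpi (1031, against 5997 to 11701 in the other carcinomas), Asns (150.1), Sqle (159), Serpina6, the corticosteroid-binding globulin gene (315), and Ctnnb1 (5528, against 8047 to 8584). It was high for Klf1 (2336) and the interferon-induced Mx2 (205, against 12.1 to 25). Its mean log2 level was low for lipogenesis and cholesterol genes (9.82) and high for erythroid markers (10.48). Non-tumour 1 stood apart in the same direction for 4 of these, with 125 for Sqle, 556 for Serpina6, 9.79 for lipogenesis and cholesterol genes and 10.51 for erythroid markers, and had a low mean for conjugation enzymes (11.47, against 12.23 to 12.68).

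HCC 2 was high for Bub1b (151, against 79.5 to 96.2) and in the means of glycolysis and hypoxia genes (11.30) and NRF2 genes (11.42). HCC 3+4 was high for Col4a2 (6354). HCC 5 was low for Homer2 (3.3), Susd1 (13.7) and Vsig4 (10.6) and in the endothelial mean (7.84). HCC 6 was low for Pecam1, an endothelial adhesion molecule (218, against 544 to 745).

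Non-tumour 6 was low for Itih5 (4.09), the Y-linked Kdm5d (16.1), Cps1 (8902) and the means of periportal genes (10.46, against 11.65 to 12.29) and sex chromosome genes (6.93), and high for Xist (10449). Non-tumour 3 was high for Arhgap26 (1499.7) and low for the endothelial Emcn (137). Non-tumour 2 was low for Fitm1 (472), and non-tumour 4 in the macrophage mean (9.78).

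Probe sets with no gene symbol or several took no part in the comparison. Of 5836 tested in the same way, 18 were higher and 13 lower in carcinoma at an adjusted p under 0.05 (limma).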

How the results depend on the processing

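Of 184 higher and 72 lower genes, the counts moved past 1.5 times under these settings. Higher calls were 112 with median centring, 412 with array weights, 58 with only HCC and non-tumour liver in the fit, 311 with 24 separate arrays and 363 without HCC 1 and non-tumour 1 together, an alternative chosen after seeing the data. Lower calls were 43 with a pseudocount of 1, 149 with array weights, 14 with only HCC and non-tumour liver in the fit, 111 with 24 separate arrays, 45 without the arrays with Xist signal and 205 without HCC 1 and non-tumour 1 together. Leaving out 1 sample gave 91 (without HCC 6) to 404 (without HCC 1) higher and 33 (without HCC 5) to 205 (without HCC 1) lower genes. Fewer samples enter these fits, and the cause of each shift was not tested beyond that.

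Replicate numbers are shared between the groups, and the labels do not say whether they pair the samples. The correlation of same-numbered deviations was 0.50 for number 1, the highest of any carcinoma and non-tumour pair. It was -0.02, -0.03 and -0.05 for numbers 2, 5 and 6. These correlations describe the samples and cannot settle the pairing, which was not tested. With the replicate block 178 genes were higher and 63 lower, with the replicate block and only these groups 34 and 8, and with the replicate block over 24 separate arrays 282 higher.

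Of 49 called genes followed by name, 30 kept their call in every one of 11 single omissions, and 13 in all 30 alternatives: Bex1, Phgdh, Gpc3, Akr1c18, Tff3, Cpe, Psat1, Sult2a8, Hacl1, Egr1, Phlda3, Trib3 and Igfbp3. None changed sign. With only these groups in the fit 21 of 49 lost the call, and with the replicate block added to that fit it was 33. It was 16 without HCC 5, 15 without HCC 6 and 10 with a pseudocount of 1. Of 28 uncalled genes that passed in some omission, 23 did so without HCC 1. Intensities near the bottom of the scale have no reliable order, so folds against them are uncertain in size.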
